A study of Mus musculus with 12 samples.

Results

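The variable (V) segments of the mouse antibody genes were followed through 12 colon RNA libraries, 4 from mice labelled FGF1, 4 from mice labelled DSS and 4 controls. The members are all genes of the deposited transcript table whose symbol starts with Ighv, Igkv or Iglv. They number 193 of 22377 listed genes: 97 of the heavy chain locus, 93 of the kappa light chain locus and 3 of the lambda light chain locus. The value of a segment in a library is its FPKM (fragments mapped to a transcript, scaled by its length and by the number mapped in the library), summed over its distinct listed transcripts, and no minimum was set on it. FGF1 stands for fibroblast growth factor 1, which the series' design text describes as a recombinant protein given to mice with inflammatory bowel disease, and DSS is dextran sulfate sodium, a salt that injures the colon lining when mice drink it. The labels give tissue and treatment and no strain, age, dose or duration, and they do not state whether the FGF1 mice also received DSS. They do not say that the libraries come from separate animals, so the p-values below measure the spread between these libraries.

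Each antibody is built from a heavy and a light chain, and the antigen-binding end of both comes from a V segment that a B cell has joined by DNA rearrangement to short D and J segments (heavy chain) or to a J segment (light chain). A rearranged segment is transcribed together with the constant region behind it, and after the B cell becomes a plasma cell that transcript is made in very large amounts. In the gut wall most plasma cells secrete immunoglobulin A (IgA). A clone of cells carries its own V segments, so V segment RNA in a tissue reflects both how much antibody transcript there is and which clones make it.

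The 193 segments stem from 348 annotated ones. Of 216 segments annotated as functional 184 were listed, and of 130 annotated pseudogenes 9. No segment annotated with a single exon (33 in all) was listed, and the same holds for the kappa constant gene Igkc and for Iglc1 and Iglc3, which are not analysed here. In the GRCm38 build the listed heavy chain segments run over chr12:113578504-116000461, the kappa segments over chr6:67555497-70704177 and the lambda segments over chr16:19085017-19260859. The 184 functional ones have a median coding length of 351 bases, usually made of a leader exon and a V exon. The end of the V exon is the part that recombination joins to the next segment, and it holds the conserved cysteine that opens the third antigen-contact loop. The following lines give the final 60 coding bases (5′ to 3′, coding strand, from the GENCODE annotation of GRCm38) of the segments on which the results below turn, with the last in-frame cysteine codon in capitals.
Iglv1: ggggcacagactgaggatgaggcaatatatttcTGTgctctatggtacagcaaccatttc
Igkv1-110: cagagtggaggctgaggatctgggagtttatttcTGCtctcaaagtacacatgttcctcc
Igkv1-117: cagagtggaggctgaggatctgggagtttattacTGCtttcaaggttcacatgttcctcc
Igkv19-93: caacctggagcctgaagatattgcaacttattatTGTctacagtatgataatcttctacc
Igkv9-120: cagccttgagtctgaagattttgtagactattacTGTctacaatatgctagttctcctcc
Igkv8-24: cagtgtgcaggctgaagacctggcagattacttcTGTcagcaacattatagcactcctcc
Ighv6-3: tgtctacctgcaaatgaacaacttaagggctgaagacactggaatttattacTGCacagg
Ighv7-3: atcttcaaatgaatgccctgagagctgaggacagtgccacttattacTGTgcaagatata
Ighv2-2: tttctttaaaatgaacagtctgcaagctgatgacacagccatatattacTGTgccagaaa
Ighv2-5: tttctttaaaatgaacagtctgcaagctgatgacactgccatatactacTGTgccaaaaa
In these lines the light chain segments carry 7 or 8 further codons after the cysteine and the heavy chain segments 1 to 3. Over all 184 functional listed segments, 183 have a cysteine codon within 12 codons of their end.

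Close copies limit how well a segment can be told from its neighbours. In 88 of the 184 functional listed segments the nearest other functional segment was at least 95% identical over the aligned coding sequence, and in 17 at least 98%. Igkv1-110 and Igkv1-117 were 97.2% identical. Ighv2-2 and Ighv2-5 were each 97.7% identical to Ighv2-4. Iglv1 and Iglv2 were 96.9% identical, with 11 differing positions in 351. Their final 120 coding bases are given below with the 4 differing positions in capitals.
Iglv1: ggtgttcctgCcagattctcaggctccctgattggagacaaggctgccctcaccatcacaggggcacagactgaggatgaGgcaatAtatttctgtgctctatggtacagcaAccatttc
Iglv2: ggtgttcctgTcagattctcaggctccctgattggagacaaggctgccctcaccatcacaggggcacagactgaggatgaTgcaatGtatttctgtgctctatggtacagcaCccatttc
The deposited values split fragments between such copies in a way the sources used here do not give, so the level of a single segment is less certain than the sum over a locus.

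The libraries listed between 45795 transcripts (DSS 3) and 54313 (control 3), and the depth in reads is unknown because the files used here hold no counts. All 8 epithelial markers were above 0 in every library, as were all T cell, smooth muscle, fibroblast and endothelial markers. Presence above 0 is therefore no check of the colon label. Some libraries stood apart in their cell markers. The summed level of 10 B cell markers was 11.1 FPKM in DSS 1 and 7.64 in DSS 3, against 0.521 to 4.28 in the other 10 libraries. Neutrophil markers summed to 131 FPKM in DSS 1 and 46.5 in DSS 3, against 0.264 to 15.01 elsewhere. Fibroblast markers were lowest in DSS 3 (20.2 FPKM) and DSS 4 (11.9), the 2 libraries with the fewest listed transcripts. Smooth muscle markers were highest in control 3 (7042 FPKM) and FGF1 3 (6487).

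The summed V segment level separated the 3 groups. The FGF1 libraries held 42.8, 136, 254 and 506 FPKM, the DSS libraries 24.6, 26.3, 16.9 and 20.2 FPKM, and the control libraries 2704, 1110.4, 519 and 834 FPKM. As deposited, every DSS library lay below every FGF1 library, and every FGF1 library below every control. FGF1 4 came within 13.2 FPKM of control 3, however, and the order of these libraries depended on the measure. Without each library's highest segment FGF1 4 held 448 FPKM and control 3 held 446 FPKM. With median-of-ratios scaling (factors of 0.995 for FGF1 4 and 1.096 for control 3) FGF1 4 also lay above control 3. Group means were 234 ± 200 FPKM in FGF1, 22.0 ± 4.27 FPKM in DSS and 1292 ± 972 FPKM in control (SD, n = 4 each). By means, the sum was 58.8 times higher in control than in DSS, 10.7 times higher in FGF1 than in DSS and 5.51 times higher in control than in FGF1. The mean log2 sum differed by -5.62 for DSS against control, 2.93 for FGF1 against DSS and -2.69 for FGF1 against control. These are descriptions of a sum over chosen genes and carry no p-value. In bulk tissue RNA, fewer antibody-producing cells and less antibody RNA per cell cannot be told apart. The spread within a group also differed: the highest FGF1 library held 11.8 times the lowest, the highest DSS library 1.56 times the lowest and the highest control 5.21 times the lowest. V segments made up 0.0113% to 0.130% of all summed FPKM in FGF1 libraries, 0.00417% to 0.00717% in DSS libraries and 0.144% to 0.714% in control libraries.

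**Figure D1:**
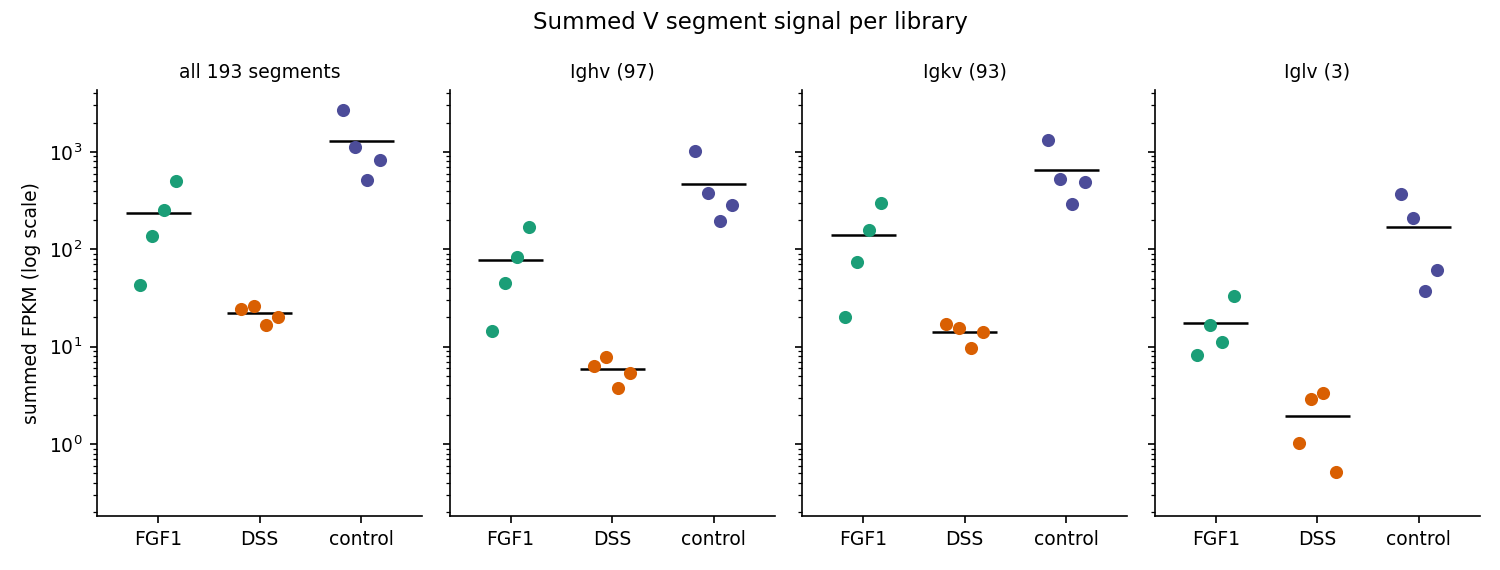
Summed FPKM of the V segments per library on a log scale, for all 193 segments and for each locus; each point is 1 library and the line is the group mean (n = 4). DSS libraries lie lowest in all 4 panels, and the FGF1 libraries lie between them and the controls, with 1 overlap in Igkv between FGF1 4 and control 3.

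All 3 loci took part. Heavy chain segments summed to 78.5 ± 67.8 FPKM in FGF1, 5.83 ± 1.74 FPKM in DSS and 466 ± 370 FPKM in control (SD, n = 4 each). Kappa segments summed to 139 ± 123 FPKM in FGF1, 14.2 ± 3.21 FPKM in DSS and 657 ± 458 FPKM in control. Lambda segments summed to 17.4 ± 11.2 FPKM in FGF1, 1.95 ± 1.40 FPKM in DSS and 169 ± 153 FPKM in control. The groups did not overlap in any locus, except that kappa reached 302 FPKM in FGF1 4, against 289 FPKM in control 3. The measured balance of the chains was not the same in the groups, but in DSS it rests on low values. DSS heavy chain sums were 3.74 to 7.91 FPKM over 12 to 24 segments seen. Heavy chain segments made up 32.9% to 33.7% of the V signal in FGF1 libraries, 22.2% to 30.1% in DSS libraries and 33.7% to 37.3% in control libraries. The ratio of kappa to heavy chain segment FPKM was 1.68 ± 0.20 in FGF1, 2.49 ± 0.36 in DSS and 1.48 ± 0.17 in control, and every DSS library (1.95 to 2.76) lay above every FGF1 (1.40 to 1.88) and control library (1.31 to 1.71).

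Fewer different segments were seen in DSS. Segments above 0 FPKM numbered 48, 101, 122 and 136 in the FGF1 libraries, 60, 53, 34 and 38 in the DSS libraries and 158, 152, 125 and 157 in the control libraries. DSS and control did not overlap, whereas FGF1 1, with 48, lay inside the DSS range and FGF1 4 above control 3. Group means were 102 ± 38.6 in FGF1, 46.2 ± 12.3 in DSS and 148 ± 15.6 in control. At 1 FPKM or more, 9, 38, 58 and 71 segments remained in FGF1, 2, 9, 3 and 5 in DSS and 112, 110, 66 and 94 in control. At that level the DSS libraries again lay below all controls, and FGF1 1 again lay within the DSS range. At least 1 library of a group showed 163 segments in FGF1, 100 in DSS and 189 in control. No segment was seen in DSS and not in control, 4 were seen in FGF1 and not in control, and 27 were seen in control libraries only. A total of 38 segments were seen in all 4 FGF1 libraries, 4 in all 4 DSS libraries and 104 in all 4 controls. The number of segments above 0 depends on depth and on the total, so it is not independent of the sum.

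The share of the leading segments in the V signal did not separate the groups. The 10 highest segments of a library held 70.4%, 45.0%, 43.0% and 47.5% of its V signal in FGF1, 42.7%, 56.8%, 67.3% and 61.3% in DSS and 64.5%, 45.7%, 60.9% and 47.6% in control. These ranges overlap between all groups, with means of 51.5% ± 12.7 in FGF1, 57.0% ± 10.5 in DSS and 54.7% ± 9.41 in control. The highest segment alone held 8.86% to 18.4% in FGF1, 8.77% to 19.9% in DSS and 7.23% to 18.3% in control. Expressed as the number of equally abundant segments that would give the same concentration (the inverse of the summed squared shares), the libraries ranged over 13.6 to 35.7 in FGF1, 13.9 to 33.1 in DSS and 16.5 to 31.97 in control. The summed levels thus separated the groups while the shares and this number overlapped. In DSS both rest on low values, with 2 to 9 segments at 1 FPKM or more and a median segment seen at 0.245 to 0.317 FPKM. The overlap therefore does not show that the concentration was the same.

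**Figure D2:**
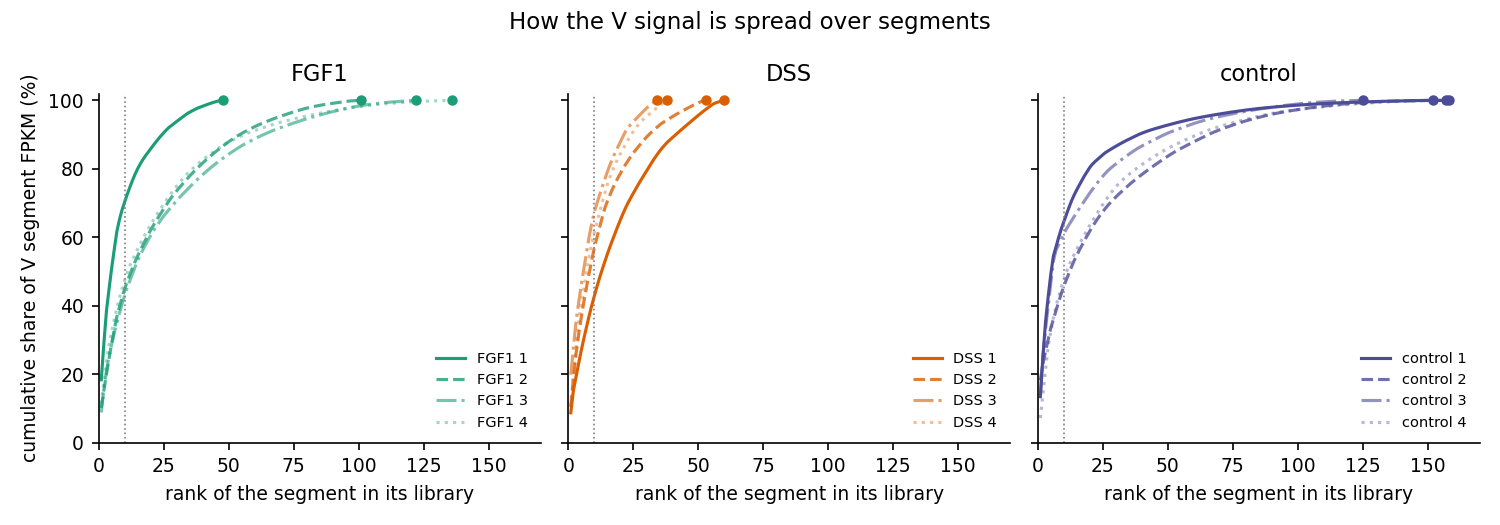
Cumulative share of a library's V segment FPKM (vertical axis, percent) against the rank of the segment in that library; each line is 1 library, its end point is the number of segments seen, and the dotted line marks rank 10. At rank 10 the libraries lie at 43.0% to 70.4% in FGF1, 42.7% to 67.3% in DSS and 45.7% to 64.5% in control, while the end points lie at 34 to 60 segments in DSS and 125 to 158 in control.

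DSS libraries were set against control libraries first, to see what the injury model did to the V segments. Over all 193 segments, the group mean was lower in DSS for 188, where it was lower for 59.9% of all 22377 listed genes. In 91 of the 193 (47.2%) every DSS library lay below every control library, against 10.9% of all 22377 listed genes, and in none did every DSS library lie above (2.45% of all listed genes). The limma test was open to 75 of the 193 segments, those at 1 FPKM or more in at least 4 of the 12 libraries, and 118 were not tested. Of the 75, 61 had no DSS library at 1 FPKM, so they entered through the other groups and the following count is no support by itself. Limma called 55 lower and 0 higher in DSS (adjusted p under 0.05), against 10.1% lower and 2.23% higher among all 12578 genes tested. The 55 were 23 heavy chain, 30 kappa and 2 lambda segments. Without DSS 3 and DSS 4 the count was 15, without DSS 3 alone 33, without DSS 4 alone 34 and without control 4 alone 35.

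Iglv1 (chr16:19085017-19085500), which supplies most lambda V signal, was the highest segment of the series. It stood at 7.88, 13.8, 10.5 and 31.5 FPKM in FGF1 libraries, 0.856, 1.497, 3.36 and 0.390 FPKM in DSS libraries and 364, 203, 33.5 and 59.1 FPKM in control libraries. No 2 groups overlapped as deposited, and control 1 and control 2 lay well above the other controls. FGF1 4 lay close to control 3, and with median-of-ratios scaling it lay above it. The log2 fold change of DSS against control was -5.60 ± 0.67 (SE; limma on log2(FPKM + 1), adjusted p = 0.00232), and the call held under all 20 alternatives. Such fold changes understate the change of low genes, because 1 FPKM was added.

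Igkv1-110 (chr6:68270485-68271267) and Igkv1-117 (chr6:68121046-68121827) are the kappa pair printed above, and both were seen in all 12 libraries. Igkv1-110 stood at 4.06, 6.22, 16.8 and 5.94 FPKM in FGF1, 0.667, 2.25, 0.915 and 0.914 FPKM in DSS and 37.6, 40.5, 73.3 and 32.1 FPKM in control. The 3 groups were fully apart, with control libraries all above 32 FPKM and DSS libraries all below 2.3 FPKM. Its log2 fold change in DSS against control was -4.40 ± 0.37 (limma, adjusted p = 0.000328). Igkv1-117 stood at 4.54, 3.78, 22.5 and 13.7 FPKM in FGF1, 2.16, 2.74, 0.122 and 0.617 FPKM in DSS and 56.1, 36.8, 34.9 and 21.0 FPKM in control. FGF1 3 just exceeded control 4 for this segment, and DSS lay below both other groups. The log2 fold change in DSS against control was -4.07 ± 0.53 (limma, adjusted p = 0.00317).

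Among heavy chain segments Ighv6-3 (chr12:114391712-114392169) stood at 2.34, 1.89, 1.28 and 3.62 FPKM in FGF1, 0.267, 0.482, 0.0875 and 0 FPKM in DSS and 196, 53.0, 5.97 and 10.1 FPKM in control. Ighv7-3 (chr12:114153180-114153644) stood at 1.201, 1.78, 1.93 and 2.84 FPKM in FGF1, 0.166, 1.204, 0 and 0.141 FPKM in DSS and 145, 10.3, 3.23 and 60.3 FPKM in control. In both the controls were spread over more than 10-fold and still lay above every DSS and FGF1 library, and for Ighv7-3 the lowest FGF1 and the highest DSS library were almost level. The log2 fold changes in DSS against control were -4.66 ± 0.80 (limma, adjusted p = 0.00524) and -4.29 ± 0.85 (0.00958), and both calls were lost without DSS 3 and DSS 4 (adjusted p = 0.0761 and 0.110). Ighv1-53, of the large Ighv1 family, stood at 2.597, 2.29, 4.59 and 7.39 FPKM in FGF1, 0.964, 0.720, 0.130 and 0 FPKM in DSS and 73.5, 2.92, 58.0 and 7.31 FPKM in control. Here FGF1 and control overlapped and DSS lay below both (DSS against control -3.80 ± 0.79, limma adjusted p = 0.0115, and 0.131 without DSS 3 and DSS 4). The remaining segments among the 10 called with the largest change were Igkv4-57 (-3.76), Igkv5-48 (-3.73), Igkv6-23 (-3.44) and Ighv1-26 (-3.38), with limma adjusted p-values of 0.00404 to 0.00647. Igkv5-48 (0.0839) and Ighv1-26 (0.0581) also lost their call without DSS 3 and DSS 4.

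**Figure D3:**
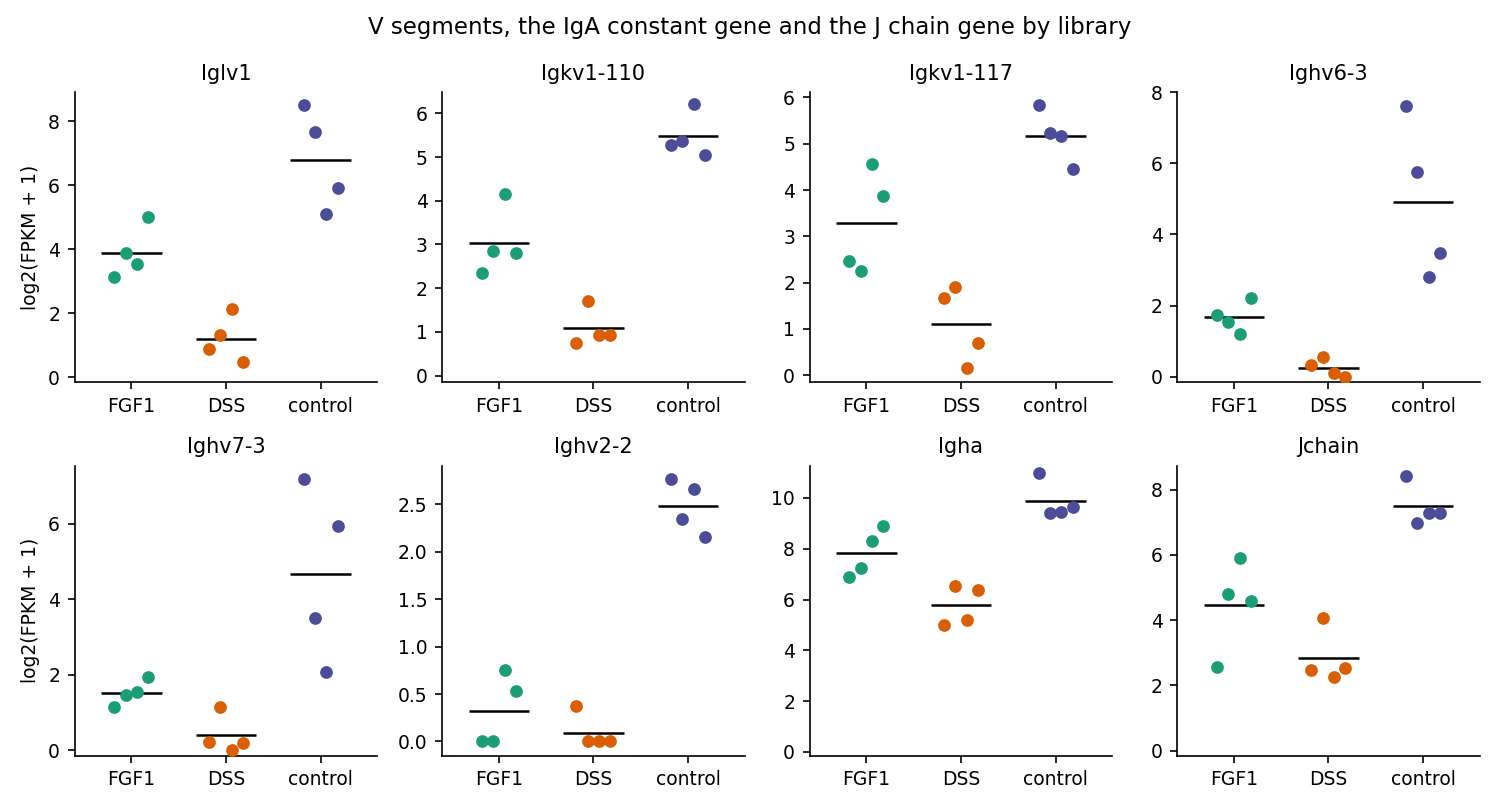
Level as log2(FPKM + 1) of 6 V segments, of the IgA constant gene Igha and of the J chain gene Jchain; each point is 1 library and the line is the group mean (n = 4). Controls lie above DSS in every panel, and FGF1 libraries mostly lie between, overlapping DSS for Ighv7-3, Ighv2-2 and Jchain and control for Igkv1-117.

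The comparison of FGF1 with DSS asks whether the colons labelled FGF1 differ from those labelled DSS. Over all 193 segments, the group mean was higher in FGF1 for 155 and lower for 11, where it was higher for 55.2% and lower for 40.9% of all listed genes. In 18 of the 193 (9.33%) every FGF1 library lay above every DSS library, against 3.31% of all listed genes, and in none below (1.27%). Those 18 were 9 heavy chain, 8 kappa and 1 lambda segment. Limma called 0 of the 75 tested segments, where it called 0.0398% of all genes tested higher and 0.0159% lower. At an unadjusted p under 0.05 it had 17 higher and 0 lower, against 8.7% higher and 3.71% lower among all genes tested. Of the 75, 61 had no DSS library at 1 FPKM, so this count is no support by itself. The smallest adjusted p was that of Igkv1-110, whose values are given above (log2 fold change 1.96 ± 0.37, limma adjusted p = 0.0712). Iglv1 differed by 2.69 ± 0.67 (0.144) and Igkv1-117 by 2.18 ± 0.53 (0.133). All 3 segments were higher in each FGF1 library than in any DSS library, and the test across all genes did not call them.

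The comparison of FGF1 with control asks how far the FGF1 colons lie from those labelled control. It shares its controls with the DSS comparison, so the values stand side by side and are not independent. In 25 of the 193 segments (13.0%) every FGF1 library lay below every control library, against 5.78% of all listed genes, and in none above (2.43%). Limma called 4 segments lower and 0 higher, where it called 0.0716% of all genes tested lower and 0.00795% higher. At an unadjusted p under 0.05 it had 44 lower and 0 higher, against 9.91% lower and 4.02% higher among all genes tested. Of the 75 segments tested, 47 were at 1 FPKM or more in all 4 controls, which alone meets the filter. These counts are therefore no support by themselves. Ighv2-2 (chr12:113588267-113588702) stood at 0, 0, 0.686 and 0.444 FPKM in FGF1, 0.297, 0, 0 and 0 FPKM in DSS and 5.83, 4.08, 5.33 and 3.45 FPKM in control. Both FGF1 and DSS libraries lay far below the controls, which were close together. It differed by -2.16 ± 0.21 in FGF1 against control (limma, adjusted p = 0.00261) and by -2.39 ± 0.21 in DSS against control (0.000328). Since it reached 1 FPKM in the 4 controls alone, it was open to the test only through the group where it is high, and its calls are no support by themselves. With a pseudocount of 0.1 the call in FGF1 against control was lost (0.104).

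The other 3 called in FGF1 against control were Ighv1-22 (-2.88 ± 0.45, limma adjusted p = 0.0458), Igkv1-110 (-2.44 ± 0.37, 0.0385) and Ighv1-9 (-2.06 ± 0.31, 0.0385). Each lost its call in 13 or 14 of 20 alternatives, with adjusted p-values up to 0.158. The number of calls was 8 without FGF1 3, 1 without any of FGF1 1, FGF1 2, FGF1 4, control 1, control 4, DSS 3 or DSS 4, 2 without DSS 2 and 0 without control 2. Ighv1-22 stood at 0, 0.352, 0.197 and 1.05 FPKM in FGF1, 0, 0, 0.262 and 0 FPKM in DSS and 19.9, 17.3, 2.94 and 5.47 FPKM in control. Ighv1-9 stood at 0.598, 1.64, 0.698 and 0.699 FPKM in FGF1, 0.323, 0, 0 and 0 FPKM in DSS and 12.5, 6.48, 8.10 and 2.99 FPKM in control. In both, the controls lay above all 8 other libraries, and apart from the 4 controls 1 FGF1 library reached 1 FPKM. The controls alone thus met the filter for Ighv1-22 and Ighv1-9, so the calls of these 2 segments are no support by themselves.

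Many segments were high in a single library. The highest library of a segment was a control for 162 segments and an FGF1 library for 31, and never a DSS library. Control 1 was the highest for 63, control 2 for 50, and FGF1 4 for 21 of those 31. For 99 of the 193 segments, 1 library held at least 50% of the FPKM summed over all 12. Igkv9-120 stood at 0.247, 0.153, 0.351 and 8.15 FPKM in FGF1, 0.806, 0.310, 0.414 and 0 FPKM in DSS and 321, 6.999, 0.535 and 12.2 FPKM in control. Igkv8-24 stood at 0.998, 2.76, 3.43 and 1.21 FPKM in FGF1, 0, 0.177, 0.783 and 2.17 FPKM in DSS and 271, 1.03, 1.41 and 5.19 FPKM in control. Control 1 alone was high in both, the FGF1 and control libraries otherwise overlapped, and neither segment was called in any comparison. Ighv2-5 had the same shape, at 0, 0.525, 0.612 and 0.0940 FPKM in FGF1 and 176, 3.18, 5.26 and 0.280 FPKM in control, and was listed at 0 in all 4 DSS libraries.

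A few segments were high in an FGF1 library instead. Igkv19-93 stood at 0.252, 2.58, 3.63 and 57.9 FPKM in FGF1, 0.412, 0.245, 0.262 and 0.982 FPKM in DSS and 6.03, 7.503, 2.01 and 3.27 FPKM in control. Ighv1-11 stood at 0, 0.190, 0 and 31.9 FPKM in FGF1, at 0 in every DSS library and at 0, 0, 0.130 and 0.186 FPKM in control. FGF1 4 alone was high in both, and these segments made up 11.4% and 6.31% of its V signal. The FGF1 mean lay above the control mean for 26 of the 193 segments and for 39.5% of all listed genes. Of the 26 segments, 19 were highest in FGF1 4, 5 in FGF1 3 and 2 in FGF1 2.

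**Figure D4:**
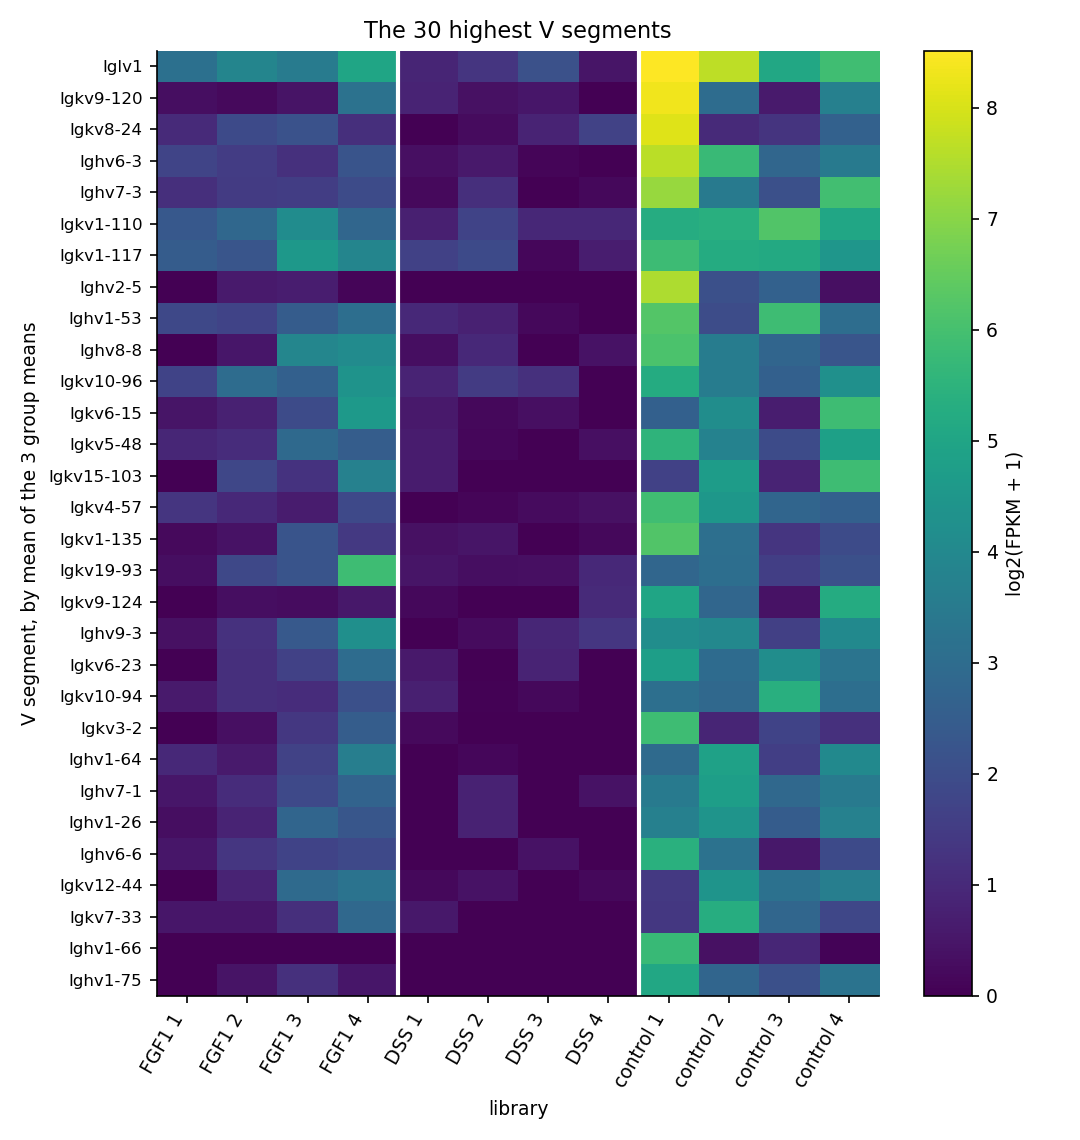
Level of the 30 V segments with the highest mean of the 3 group means (rows) in the 12 libraries (columns), as log2(FPKM + 1). DSS columns are dark throughout, Iglv1, Igkv1-110 and Igkv1-117 are bright in all 4 controls, and Igkv9-120, Igkv8-24 and Ighv2-5 are bright in control 1 alone.

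The leading segments were mostly not shared between libraries. A total of 55 segments came among the 10 highest of at least 1 library, and 29 of them did so in 1 library only. The 4 that did so in at least 6 libraries were Iglv1 (11 libraries), Igkv1-117 (10), Igkv1-110 (9) and Igkv10-96 (6). Likewise 23 segments held 5% or more of the V signal of some library, 14 of them in 1 library only, and Iglv1 did so in 9. Igkv10-96 was among the 10 highest in 3 FGF1 and 3 DSS libraries and in no control, at 2.24, 6.999, 5.07 and 19.7 FPKM in FGF1, 0.801, 1.81, 1.28 and 0 FPKM in DSS and 36.3, 10.98, 5.09 and 18.5 FPKM in control. Its FGF1 and control libraries overlapped in level, so its place in the ranking differed while its level did not separate these groups. The 3 highest of a library also included Igkv6-17 in DSS 1 (1.61 FPKM), Igkv8-19 in DSS 3 (1.33 FPKM), Igkv6-13 and Igkv16-104 in DSS 4 (1.77 and 1.61 FPKM), Ighv8-8 in FGF1 3 (14.0 FPKM), Igkv4-57-1 in FGF1 2 (6.47 FPKM), Igkv10-94 in control 3 (40.7 FPKM) and Igkv15-103 in control 4 (58.0 FPKM). Between pairs of libraries Spearman's rho over the 193 segments had a median of 0.528 within FGF1, 0.308 within DSS and 0.627 within control (6 pairs each), 0.571 between FGF1 and control, 0.386 between FGF1 and DSS and 0.348 between DSS and control (16 pairs each). These are descriptions: the points are segments of the same libraries, and ties at 0 are many in DSS.

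V segments are grouped into families by sequence, and the shares of the large families mostly overlapped between groups. Ighv1, the largest family with 50 listed segments, held 15.2% ± 3.46 of the V signal in FGF1, 8.67% ± 2.18 in DSS and 14.9% ± 4.01 in control (SD, n = 4 each). Its range in DSS (6.26% to 11.5%) lay below that in FGF1 (12.2% to 20.04%) and overlapped that in control (9.98% to 19.7%). Iglv1 held 9.74% ± 6.30 in FGF1, 7.76% ± 8.25 in DSS and 11.3% ± 5.61 in control. The 7 Igkv1 segments held 13.6% ± 8.58 in FGF1, 12.001% ± 6.54 in DSS and 10.6% ± 7.14 in control. For Iglv1 and the Igkv1 family the SD in each group was larger than any difference between the group means. Families with 0 in every DSS library were Ighv4, Ighv11, Ighv13, Ighv15 and Igkv11, all low in the other groups too, with the highest group mean at 2.25 FPKM (Ighv13 in FGF1).

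Position along the locus showed no separation of groups either. The heavy chain segments lie 149 to 2570.2 kb from the Ighj1 segment, and the 49 nearest (within 1182 kb) held 53.4% ± 6.38 of the heavy chain signal in FGF1, 60.8% ± 7.88 in DSS and 55.2% ± 8.67 in control. The kappa segments lie 18.4 to 3166 kb from Igkj1, and the 47 nearest held 38.2% ± 5.41 in FGF1, 44.8% ± 7.90 in DSS and 42.8% ± 8.86 in control (SD, n = 4 each). For both loci the ranges of all 3 groups overlapped. The 9 listed pseudogenes, which encode no antibody chain, together reached at most 1.19 FPKM in any library, against 16.8 to 2703 FPKM for the functional segments.

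**Figure D5:**
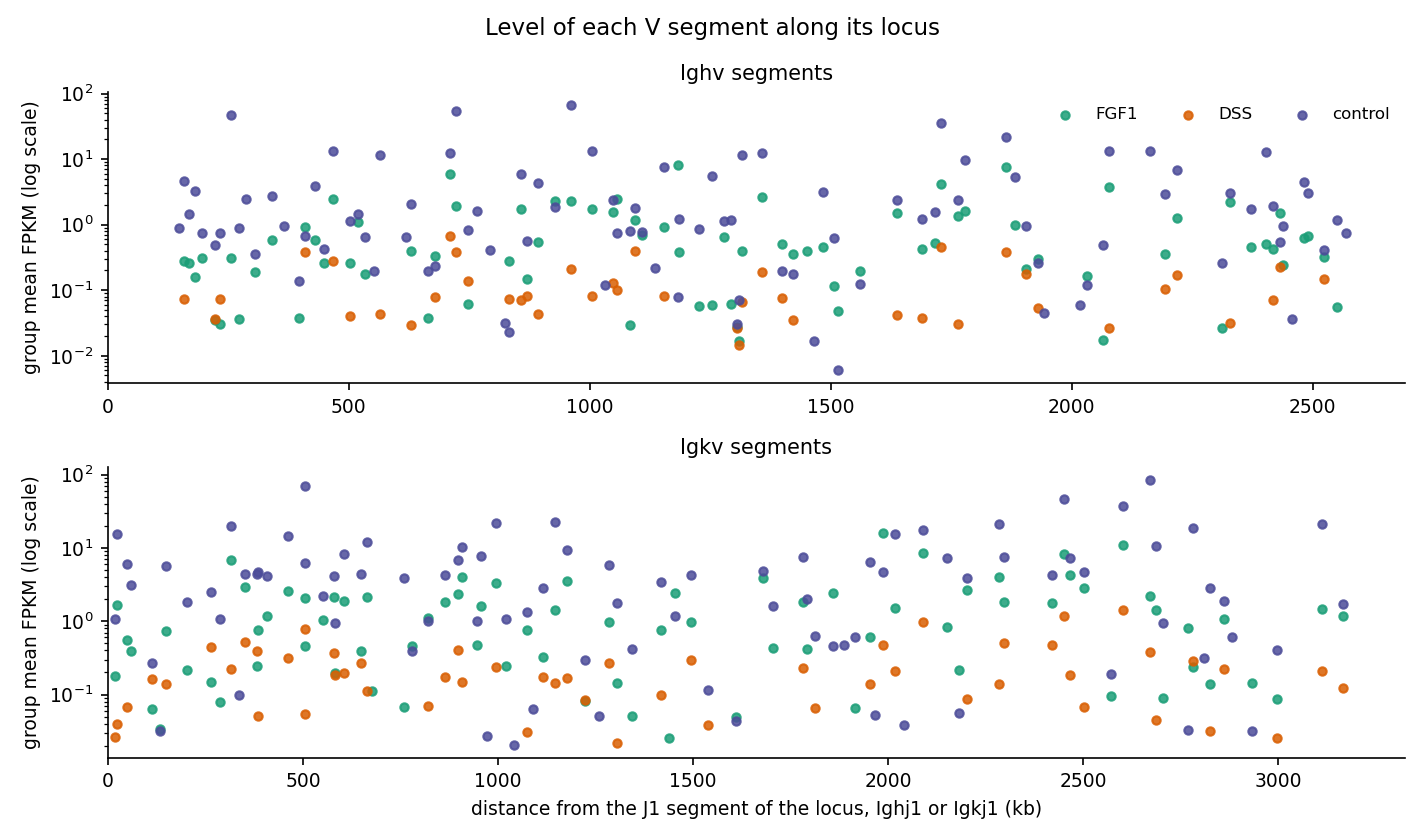
Group mean FPKM of each heavy chain and kappa segment (log scale) against its distance in kb from the J1 segment of its locus; segments with a group mean of 0 are not drawn for that group. Apart from Ighv3-5, control points lie above the DSS points of the same segment along the whole of both loci, with FGF1 points mostly between.

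The other genes of the antibody pathway were read from a list of 47, of which 42 were listed and 19 tested. Limma called 6 lower and 0 higher in DSS against control, beside 10.1% lower and 2.23% higher among all genes tested, and none in either other comparison. Igha, the IgA constant gene, stood at 119, 151, 316 and 472 FPKM in FGF1, 30.7, 92.2, 35.3 and 81.6 FPKM in DSS and 2016, 684, 694 and 804 FPKM in control. It separated the groups as the V segments did (DSS against control -4.10 ± 0.51, limma adjusted p = 0.00246). Jchain (-4.65), which links IgA into dimers, the IgG1 constant gene Ighg1 (-2.87), the plasma cell chaperone gene Mzb1 (-1.46), the secretory cell transcription factor gene Xbp1 (-0.51) and the IgM constant gene Ighm (-1.01) were the other 5, with adjusted p-values of 0.00317 to 0.0461. Ighm lost its call in 16 of 20 alternatives, Ighg1 in 5, and Mzb1 and Xbp1 without DSS 3 and DSS 4. Pigr, the epithelial receptor that carries IgA into the lumen, stood at 673 ± 110.4 FPKM in FGF1, 572 ± 109 FPKM in DSS and 669 ± 102 FPKM in control (SD, n = 4 each; DSS against control -0.23 ± 0.17, limma adjusted p = 0.410). None of the 3 tested B cell genes was called. None of Rag1, Rag2 and Dntt, which carry out V segment joining in developing B cells, exceeded 0.05 FPKM in any library.

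The heavy chain V sum was lower relative to Igha in DSS as well. The ratio of heavy chain V segment FPKM to Igha FPKM was 0.121, 0.296, 0.267 and 0.361 in FGF1, 0.204, 0.0859, 0.106 and 0.0664 in DSS and 0.501, 0.548, 0.279 and 0.354 in control. All DSS libraries lay below all controls, and FGF1 overlapped both. In DSS the ratio rests on low values, with heavy chain sums of 3.74 to 7.91 FPKM over 12 to 24 segments seen. FGF1 1, with 21 heavy chain segments seen, had the lowest ratio of its group. This ratio was looked at after its parts had been seen, and it has no test. Markers of several wall cell types were also lower in DSS than in control, and their part in the differences of the V segments was not tested. Of the markers tested in DSS against control, 7 of 7 fibroblast, 6 of 6 endothelial and 6 of 8 macrophage markers were lower and none higher, beside 10.1% lower among all genes tested. Of the other lists, 3 of 5 plasma cell, 2 of 8 smooth muscle and 1 of 8 epithelial markers tested were lower, and 0 of 4 T cell, 0 of 2 B cell and 0 of 2 neutrophil markers. Fibroblast markers summed to 64.7 to 193 FPKM in FGF1, 11.9 to 76.7 FPKM in DSS and 213 to 327 FPKM in control. Endothelial markers summed to 14.2 to 26.5 FPKM in FGF1, 3.64 to 23.4 FPKM in DSS and 39.7 to 52.6 FPKM in control. Macrophage markers summed to 18.6 to 60.4 FPKM in FGF1, 9.44 to 23.7 FPKM in DSS and 45.7 to 84.6 FPKM in control. DSS and control did not overlap in any of these 3 lists, and FGF1 overlapped control in the macrophage list alone. FGF1 and DSS overlapped in all 3 lists and did not overlap in the V segment sum. Whether the lists and the sum are related was not tested. Plasma cell markers were 8 genes, with Jchain, Xbp1 and Sdc1 among them. They summed to 141 to 195 FPKM in FGF1, 125 to 145 FPKM in DSS and 271 to 496 FPKM in control. FGF1 and DSS overlapped in this sum. Sdc1 was its largest part in DSS, with means of 75.8 FPKM in FGF1, 74.5 FPKM in DSS and 70.4 FPKM in control. It was not called in DSS against control (0.07 ± 0.14, limma adjusted p = 0.802). DSS 1 and DSS 3, the libraries with the most B cell marker signal, held 24.6 and 16.9 FPKM of V segments, the second highest and the lowest sum of their group.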

How the data were processed

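Total RNA of 12 mouse colon samples was selected with oligo(dT) beads and sequenced, per the labels' protocols. The submitters' processing notes name cutadapt 1.9, HISAT2 2.0.4, StringTie 1.3.4d, edgeR and GRCm38, without their settings. The authors deposited a table of splicing events with the FPKM of each transcript in each library; the depth in reads is not given in the sources used here, and the unit keeps no counting error. The 390 rows of the members were reduced to 196 transcripts, whose values did not disagree over rows, and summed per gene. All 390 rows match an exon of the GENCODE annotation of GRCm38, from which symbols, positions and sequences were taken.

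Tests used limma 3.58.1 (R 4.3.3) on log2(FPKM + 1) computed from the deposited FPKM, with all 12 libraries in 1 fit and an intensity trend, over the 12578 genes with at least 1 FPKM in at least 4 libraries. Adjustment was by Benjamini-Hochberg over all of them, with calls at an adjusted p under 0.05. Sums, counts seen, shares and ratios are descriptions.

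Alternatives were a pseudocount of 0.1, no filter, transcripts with a start event only, median-of-ratios scaling, a replicate block, fits on the compared groups only, and leaving out libraries. Identity between segments was taken from global alignments (Biopython 1.88).

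The named segments are the 10 with the highest mean of group means, the 3 highest of each library, and the called ones (up to 10 per comparison, by size of change), beside the antibody pathway list and the cell type markers. Segments outside that rule were named after their values were seen. Members, gene lists and tests were chosen with earlier results of these data known. Without strand information in the sources used here, fragments of overlapping genes cannot be told apart.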

Additional observations from a re-analysis of the deposited data

Results flagged for a closer look

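In 28 of 135 groups of 4 libraries looked at, the highest or lowest library lay so far from the others that its gap, as a share of the group's range, passed Dixon's 95% critical value for 4 samples. For independent groups of normally distributed values chance alone would give about 1 in 20. The gaps here were taken on untransformed values, and the groups share the same libraries. Low segments listed at 0 in all but 1 library reach a gap share of 1 by construction. The count of 28 is therefore not read as an excess over that rate.

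Among the FGF1 libraries the share of the 10 highest segments stood apart in FGF1 1 (gap share 0.839). FGF1 4 stood apart for Ighv1-11 (0.994), Igkv19-93 (0.941), Igkv9-120 (0.975), Ighg1 (0.860), Ighg2b (0.908) and Xbp1 (0.868). FGF1 2 did so for Ighv1-9 (0.904) and FGF1 3 for Igkv1-110 (0.831).

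In DSS a gap share of 1 was found for Ighv1-22, Ighv1-26, Ighv1-9, Ighv2-2, Igkv15-103 and Igkv6-13, each listed above 0 in a single DSS library. DSS 2 stood apart for Ighv7-3 (0.862), Igkv1-110 (0.843) and Jchain (0.910), and DSS 4 for Igkv16-104 (0.850).

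In control, control 1 stood apart for Ighv2-5 (0.972), Ighv8-8 (0.888), Igkv6-13 (0.965), Igkv8-24 (0.985), Igkv9-120 (0.964), Igha (0.909), Jchain (0.861) and Pigr (0.881), and control 3 for Igkv10-94 (0.964).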

How the results depend on the processing

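The log2 differences of the sums kept their direction and moved by less than the spread between libraries. This held under start events, median-of-ratios scaling, functional segments only, single loci and without each library's highest segment. The full separation of FGF1 from control did not hold throughout. FGF1 4 lay above control 3 with median-of-ratios scaling, in the kappa segments alone and without each library's highest segment. Leaving out 1 library in turn, the log2 difference of the sums ran over -5.97 to -5.18 for DSS against control, 2.39 to 3.58 for FGF1 against DSS and -3.23 to -2.04 for FGF1 against control. Segments called in DSS against control numbered 41 to 58 under the other settings, 15 without DSS 3 and DSS 4, and 33 to 54 with 1 library left out. FGF1 against DSS had 0 calls in every setting. FGF1 against control had 0 with a pseudocount of 0.1, 1 with start events and 1 with only the compared groups. It had 6 with no filter, 5 without control 3 and FGF1 3, 4 with median-of-ratios scaling and 3 without DSS 3 and DSS 4. With 1 library left out it had 0 to 8. The causes were not tested. With a replicate block the counts were 47 for DSS against control, 0 for FGF1 against DSS and 1 for FGF1 against control. Same-numbered libraries correlated at -0.22 to 0.40 over 12 pairs, 3 of them over 0.1, and 3 of 12 libraries were closest to their own number, so the number is not treated as a pairing.

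At 1 FPKM or more the mean number of segments seen was 44 in FGF1, 4.75 in DSS and 95.5 in control. The 5 highest segments held 35.3% in FGF1, 37.4% in DSS and 40.4% in control, and the highest alone 12.2% in FGF1, 12.5% in DSS and 13.3% in control. With 1 library left out the mean number seen ran over 90.3 to 120 in FGF1, 41.7 to 50.3 in DSS and 145 to 156 in control, and the share of the 10 highest over 45.2% to 54.3% in FGF1, 53.6% to 61.8% in DSS and 51.4% to 57.7% in control. Some uncalled differences changed sign. Igkv19-93 in FGF1 against control (0.17) was -0.17 with a pseudocount of 0.1, -0.10 without control 3 and -0.94 without FGF1 4, over a range of -0.94 to 0.91 with 1 library left out. In FGF1 against DSS, Ighm (-0.05) was 0.15 without DSS 1, 0.12 without DSS 3, 0.017 without FGF1 1 and 0.016 without FGF1 2, with a range of -0.37 to 0.15, and Ighg2b (-0.22) was 0.032 without DSS 3, with a range of -0.45 to 0.032. Pigr in FGF1 against control (0.0070) was -0.032 without control 2, -0.034 without control 4, -0.015 without control 3 and -0.10 without FGF1 4, with a highest value of 0.11.

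Over all genes, DSS against control had 280 higher and 1269 lower calls, and 677 and 982 with median-of-ratios scaling, under which the median log2 fold change was 0.05 instead of -0.07 and 54 V segments were called lower. FPKM sums give no counting error, so the lowest levels have unknown precision, and 98%-identical copies limit the values of single segments.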

Other observations

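T cell receptor V segments, which T cells rearrange in the same way, were listed for 51 genes in the same table. They summed to 0.680, 2.31, 1.91 and 4.54 FPKM in FGF1, 1.66, 0.487, 1.51 and 0.495 FPKM in DSS and 3.23, 2.99, 0.293 and 1.27 FPKM in control. The groups overlapped, and control 3 had the lowest sum of all libraries. The numbers seen were 4, 8, 8 and 19 in FGF1, 9, 2, 6 and 2 in DSS and 20, 11, 3 and 10 in control.

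Vpreb1, a part of the surrogate light chain of developing B cells, stood at 0.312, 0, 0 and 0.428 FPKM in FGF1, 0.401, 0.247, 0.309 and 0 FPKM in DSS and 0, 0, 0.0969 and 0 FPKM in control. Ighd, the IgD constant gene of B cells not yet switched to another class, stood at 0.327, 0.431, 0.758 and 0.152 FPKM in FGF1, 3.06, 0.207, 2.02 and 0.0586 FPKM in DSS and 0.408, 0.0549, 0.230 and 0.0896 FPKM in control. DSS 1 and DSS 3 were the highest for Ighd, and the same 2 libraries had the most B cell marker signal. Both genes lay below the filter and were not tested.

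Ighv3-5 was the single V segment whose DSS mean (0.0737 FPKM) lay above its control mean (0.0231 FPKM), at levels near 0.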
